A study of Mus musculus with 12 samples.

Results

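The dendritic cells of mouse mammary tumours were described here from 66 cells, out of 7366 kept cells of 12 tumours (0.896%). They were chosen by UMI counts of each cell. A kept cell had at least 200 detected genes. A dendritic cell had at least 10 UMIs summed over Cd74, H2-Aa, H2-Ab1 and H2-Eb1, and at least 1 UMI summed over Flt3, Ccr7, Cd209a, Xcr1, Clec9a and Ccl22. It had 0 UMIs of the complement genes C1qa, C1qb and C1qc, and no more than 2 UMIs summed over Epcam, Krt8 and Krt18. These 16 genes chose the cells, so their levels are a description and support nothing. The same holds for any contrast of these cells with other cells, which is given without a test.

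Dendritic cells take up antigen, present its peptides on MHC class II to CD4 T cells and carry it to lymph nodes. Conventional dendritic cells arise under FLT3 signalling and fall into cDC1, marked by XCR1 and CLEC9A and known for cross-presentation to CD8 T cells, and cDC2, which include CD209A-bearing cells. On maturation either kind takes up CCR7, the receptor for the lymph node chemokines, and a shared programme with CCL22 and the actin-bundling protein fascin (Fscn1). In mammary tumours they lie among many more macrophages, which also carry MHC class II and are marked by C1q.

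The tumours arose in FVBN mice with the HER2 Crainbow transgene, in which Cre under the mammary MMTV promoter switches on a labelled form of the receptor tyrosine kinase HER2 in mammary epithelium, and none was treated. Nulliparous mice gave 5 tumours labelled p95 HER2 (aged 15 to 20 weeks) and 3 labelled d16 HER2 (16 to 21 weeks), and multiparous mice gave 4 tumours of unknown form (16 or 17 weeks). By growth pattern 7 tumours were metaplastic or invasive (all p95 tumours and d16 tumours 2 and 3, called metaplastic here), 3 were solid nodular (d16 tumour 1, multiparous tumours 2 and 4) and 2 were mixed (multiparous tumours 1 and 3). The transgene is carried by every group, and no tumour without it or normal gland was analysed here. Dissociated cells were read by single-cell 3′ RNA sequencing, with several libraries joined per tumour. The labels do not say whether tumours came from separate animals, so p-values measure the spread between these samples.

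Total UMIs per tumour ran from 140348 to 4394398, and the median per kept cell from 449 (d16 tumour 1) to 4536 (multiparous tumour 2). Gene names were intact in the tables of p95 tumours 1 and 2 and d16 tumours 1 and 2 and partly turned into dates in the other 8, and this layout is treated below as a batch. Barcodes were shared by 29 pairs of cells in different tables, none of them a dendritic cell. No doublet caller was run, and 1 dendritic cell lay above the 95th percentile of UMIs of the kept cells of its own tumour.

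The dendritic cells held a median of 3071 UMIs (432 to 7200) and 1298 detected genes, and 209988 UMIs in all. Their 4 MHC class II genes summed to a median of 144 UMIs per cell (10 to 430), and the 6 dendritic genes to a median of 8.5 (1 to 222). Near the limits, 6 members had 10 to 19 UMIs of the MHC class II genes, and 2 cells that met all other conditions had 5 to 9. Members with a single UMI of the 6 dendritic genes numbered 7, while 31 had 10 or more. On the C1q side, 3 cells stood just outside with 1 or 2 UMIs and another 95 with 3 or more, and 8 cells had 3 to 5 UMIs of the epithelial genes.

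Markers of other cells varied by list in the dendritic cells. Of the T or NK cell markers 4 of 8 gave 0 UMIs, of the fibroblast markers 2 of 7 and of the neutrophil markers 3 of 9. It was 2 of 12 for monocytes and 5 of 14 for macrophages, the C1q genes that the rule holds at 0 among them. For epithelial and endothelial cells it was 0 of 11 and 0 of 6. Of the 8 B cell markers in the tables, which mark the other class of cells rich in MHC class II, none gave a UMI. How many of all genes were at 0 UMIs is not given. Counts of markers at 0, here and below, are thus not read as the absence of a cell type. UMIs of the CD3 subunit genes Cd3d, Cd3e and Cd3g were read in 1 cell, and collagen UMIs numbering 2 or more in 1 cell. Adgre1 (F4/80), a defining macrophage gene, and the platelet factor gene Pf4 were both at 0, whereas the macrophage genes Csf1r, Cd14 and Apoe were read. Krt14, a basal keratin, gave 68 UMIs, of which 65 lay in 2 cells of p95 tumour 5. Free RNA was not removed, and the 6 dendritic genes served to gauge it. At least 1 UMI of these was found in 1.90% of 3376 epithelial cells (median 2877 UMIs) and in 14.2% of the 689 C1q positive cells that met the same MHC class II minimum (median 2104 UMIs). Ccr7 was read in 72.7% of dendritic, 6.39% of C1q positive and 1.18% of epithelial cells, and Flt3 in 36.4%, 0% and 0.237%. These genes chose the cells, so the shares are no check of the label. Markers that the rule did not use are given below by list, and not all of them were higher.

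Class II genes opened the description because they chose the cells. The promoters shown are those of 2 rule genes, H2-Aa and H2-Eb1 (the α chain of I-A and the β chain of I-E), and of H2-Oa, a class II gene that the rule did not use and that stood high in these cells. They are the 150 bases before the start site in the RefSeq tables (GRCm38.p6, the C57BL/6 reference, whereas the mice were FVBN), 5′ to 3′ on the gene's strand. The windows are chr17:34287824-34287973 (minus strand) for H2-Aa, chr17:34305717-34305866 (plus strand) for H2-Eb1 and chr17:34092229-34092378 (plus strand) for H2-Oa. Capitals mark CTGATTGG, the Y box of class II promoters, which binds the factor NF-Y.
H2-Aa: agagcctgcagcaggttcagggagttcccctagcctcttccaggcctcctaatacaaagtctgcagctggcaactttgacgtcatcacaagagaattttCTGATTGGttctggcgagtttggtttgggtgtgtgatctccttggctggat
H2-Eb1: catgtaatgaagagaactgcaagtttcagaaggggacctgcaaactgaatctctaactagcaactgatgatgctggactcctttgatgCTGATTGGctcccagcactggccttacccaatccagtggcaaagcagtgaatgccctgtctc
H2-Oa: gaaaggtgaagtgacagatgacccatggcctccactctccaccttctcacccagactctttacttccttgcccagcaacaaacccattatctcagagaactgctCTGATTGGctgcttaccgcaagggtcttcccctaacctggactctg
The capitals begin 51, 62 and 46 bases before the RefSeq start of H2-Aa, H2-Eb1 and H2-Oa. The RefSeq start of H2-Oa lies 39 bases inside the gene as the GENCODE annotation places it, so the last 39 bases of that window belong to the gene there. CTGATTGG was searched on both strands in the RefSeq windows of 300 bases (250 before to 50 after each start), and 4.1% of 32851 windows held it. Of the 9 H2 class II genes in the list of presentation genes, 8 had a window and 4 of these held it, the fourth being H2-Eb2. The shorter TGATTGG, which lies within it, was in 7 of the 8 and in 7.82% of windows. H2-Ab1 and Ccr7 have no entry there. A match is a description of letters and not of a bound site.

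Levels below are UMIs per 1000000 UMIs (CPM) of the cells summed within a tumour, as mean ± SD over the 8 tumours with at least 3 dendritic cells (62 of the 66). The reference is the C1q positive cells of the same tumours. H2-Aa stood at 17049 to 35371 CPM (median 19896) in the dendritic cells and at 10595 to 22314 in the C1q positive cells. Its means were 22842 ± 6408 and 15700 ± 4463 CPM, and the ranges overlapped. H2-Ab1, the partner chain, stood at 22492 ± 6614 against 15533 ± 4276 CPM, with the dendritic cells higher in 8 of 8 tumours. Cd74, the invariant chain that guards the peptide groove, had close means, at 6791 ± 3307 against 7087 ± 3664 CPM. The dendritic cells were higher in 5 of 8 tumours, so no clear direction was seen. Both kinds of cell had been chosen at the same class II minimum.

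Of the genes that open the dendritic side of the rule, Ccr7 (chr11:99144196-99155077, minus strand, GRCm38) stood at 738 to 4724 CPM (mean 2711 ± 1330). Ccl22, which encodes a chemokine for regulatory T cells (chr8:94745590-94751699, plus strand), varied more, from 211 to 11078 CPM with a median of 1795. Flt3 (chr5:147330741-147400489, minus strand), the growth factor receptor of the lineage, stood at 216 ± 121 CPM and had 0 UMIs in the C1q positive cells. Pooled over tumours, its level was at least 96.3-fold higher than a floor of 3 UMIs over those cells. Cd209a, a lectin gene, stood at 463 ± 716 CPM and was at 0 in the dendritic cells of 3 of 8 tumours. The level of Flt3 was thus low, and it rested on 36 UMIs in all 66 cells. Levels of Ccl22 and Cd209a were high in some tumours and low in others.

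By these genes the 66 cells fell into overlapping sets, which are described here without a test. Ccr7 or Ccl22 was read in 52 cells of 10 tumours, and both in 29. Cd209a was read in 19 cells of 6 tumours, of which 13 also had Ccr7 or Ccl22. Xcr1 or Clec9a was read in 9 cells of 5 tumours, of which 3 also had Ccr7 or Ccl22 and 1 had Cd209a. Flt3 was read in 24 cells and was the sole gene of the 6 in 2 cells. Both of those had UMIs of Siglech, a gene of plasmacytoid dendritic cells, which 3 of the 66 cells had. The 2 tumours with 10 or more dendritic cells held cells of the Ccr7 or Ccl22, Cd209a and Xcr1 or Clec9a sets. In d16 tumour 3, 17 of 20 cells had Ccr7 or Ccl22, 7 had Cd209a and 4 had Xcr1 or Clec9a, and in p95 tumour 5 the counts were 6, 6 and 2 of 10.

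The 9 cells with Xcr1 or Clec9a carried other genes of cDC1. Naaa, a lipid hydrolase gene, was read in 9 of 9 (68 UMIs, 2129 CPM pooled over the cells), and in 11 of the 19 Cd209a cells (206 CPM). Wdfy4, needed for cross-presentation, was read in 8 of 9 cells (939 CPM) against 6 of 19 (118 CPM). Itgae, which encodes CD103, was read in 6 of 9 (1096 CPM) against 5 of 19 (250 CPM). Cst3, the protease inhibitor cystatin C, stood at 30398 against 9055 CPM. The lineage factor gene Irf8 was read in 6 of 9 (1127 CPM) against 6 of 19 (221 CPM). The transcription factor gene Batf3, also of cDC1, was read in 4 of 9 against 0 of 19. Neither was particular to this set. Of the 15 cells with Fscn1 described below, Irf8 was read in 11 (1278 CPM) and Batf3 in 5. At 1 to 4 cells per tumour these values describe the cells and not the tumours.

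The 19 cells with Cd209a carried lectin and myeloid genes. Clec10a, a galactose-binding lectin gene of cDC2, was read in 15 of 19 (1605 CPM pooled) and in 4 of the 9 cells with Xcr1 or Clec9a (282 CPM). Mgl2, its neighbour of like function, was read in 9 of 19 and Sirpa, a signal regulator of cDC2, in 10 of 19. Il1b, the interleukin-1β gene, was read in 17 of 19 at 16902 CPM, and Cd14, the lipopolysaccharide co-receptor, in 16 of 19 at 5109 CPM. Csf1r, the receptor of macrophage growth factor, was read in 11 of 19. The macrophage gene Adgre1 was read in 0 of 19. Monocyte-derived cells can carry the same genes, and the list of 6 compared monocyte genes had 2 at least 2-fold higher (Plac8 and Ccr2) and 3 lower (Fn1, Cx3cr1 and F13a1) in the dendritic than in the C1q positive cells.

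Among the 52 cells with Ccr7 or Ccl22, those with the fascin gene Fscn1 stood apart in several genes. These 15 cells of 7 tumours, of which 7 cells came from d16 tumour 3, were looked at after values had been seen. Ccl22 stood at 10797 CPM pooled over them and at 1294 CPM in the 37 cells without Fscn1, and Ccr7 at 6119 and 2953 CPM. Of the 600 Ccl22 UMIs with Fscn1, 182 lay in 1 cell of p95 tumour 3 and 144 in 1 cell of d16 tumour 3. The median Ccl22 UMIs per cell were 15 with and 1 without Fscn1. Serpinb6b, a protease inhibitor gene, was read in 11 of 15 against 6 of 37 cells, Mreg, which encodes melanoregulin, in 8 against 4, and Relb, the non-canonical NF-κB subunit, in 12 against 12. Il12b, the shared chain of interleukins 12 and 23, was read in 5 of 15 cells (76 UMIs) against 2 of 37 (29 UMIs), and the chemokine gene Ccl5 in 5 (85 UMIs) against 1 (3 UMIs). Not all genes of maturation followed. Ccl17 stood at 2843 CPM with and 3482 CPM without Fscn1, Traf1 at 576 and 738, Pdcd1lg2 at 414 and 452, Cd83 at 1188 and 1164 and Cd86 at 576 and 599. Genes of the other sets lay the other way: Clec10a was read in 3 of 15 against 18 of 37 cells, Cd209a in 1 against 12, and Cd14 stood at 1476 against 4455 CPM. Timd4, a phosphatidylserine receptor gene, was read in 2 of 15 against 20 of 37 cells.

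The share of a cell's UMIs from the 4 class II genes was lower in cells with Fscn1. Its median was 2.23% (0.316 to 7.02%) in the 15 cells and 5.42% (0.811 to 10.4%) in the 51 cells without Fscn1. In the 11 cells with 2 or more Fscn1 UMIs the median was 1.60%. The ranges overlapped, and the median depth was 3675 UMIs with and 2875 without Fscn1. Fscn1 was also read in 21.6% of epithelial cells, about the share in dendritic cells (22.7%), and in 1.45% of C1q positive cells. The part of free epithelial RNA in single Fscn1 UMIs was not tested.

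**Figure D1:**
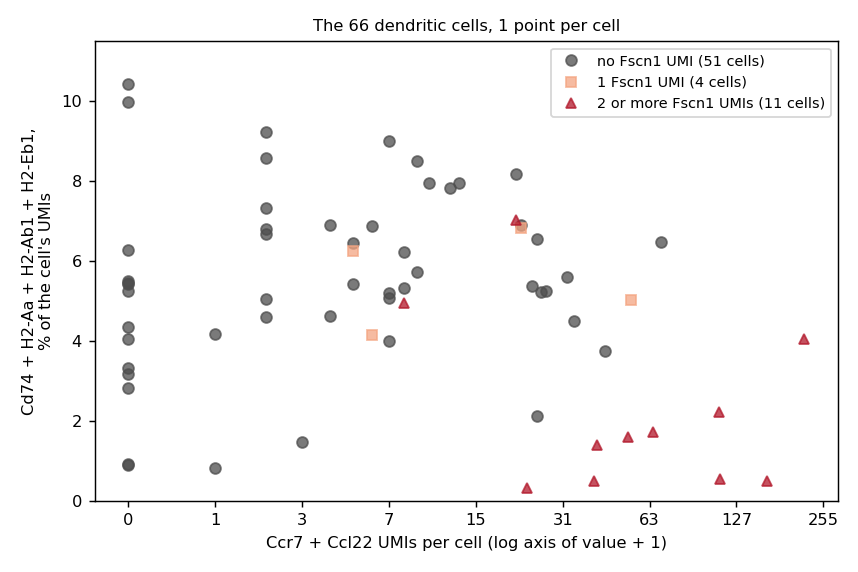
Each point is 1 of the 66 dendritic cells, with its UMIs of Ccr7 plus Ccl22 on the x axis (log axis of value + 1) and the share of its UMIs from Cd74, H2-Aa, H2-Ab1 and H2-Eb1 (percent) on the y axis. Triangles mark the 11 cells with 2 or more Fscn1 UMIs, which lie towards the right and the bottom, with a median class II share of 1.60% against 5.42% in the 51 cells without Fscn1.

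Outside the rule, 3208 genes were compared between dendritic and C1q positive cells. For each, the average of the mean CPM of both kinds of cell was at least 50. Of these, 400 (12.5%) were at least 2-fold higher and 397 (12.4%) at least 2-fold lower in the dendritic cells, on a scale of mean CPM + 10, and the median log2 ratio was 0.15. The ranges over the 8 tumours did not overlap for 114 of the 3208 genes (3.55%), in either direction. Both kinds of cell were picked on C1q, and the dendritic cells also on the 6 dendritic genes. Of the 689 C1q positive cells, 98 had a UMI of those 6 genes. The counts thus carry no test, and the list counts below are to be read beside them. All ratios are log2 of dendritic over C1q positive cells.

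Among the lists with at least 5 compared genes, the mature dendritic programme had the highest median. Of 21 compared genes of the CCR7-type list, 13 were at least 2-fold higher and 1 (Anxa3) lower, with a median log2 ratio of 1.53. Fscn1 (chr5:142960343-142973185, plus strand) ranged from 0 CPM in d16 tumour 2 and multiparous tumour 2 to 1554 in d16 tumour 3 and 2476 in multiparous tumour 1, with 59.1 to 906 in the other 4. Its mean was 717 ± 903 CPM against 10.6 in the C1q positive cells, a log2 ratio of 5.14. Its high mean rested on a few tumours, with a median of 369 CPM. Serpinb6b stood at 0 to 663 CPM (mean 342 ± 245) against 2.64 CPM in the C1q positive cells, and Mreg at 226 ± 171 against 2.50 CPM (4.24). Traf1, an adaptor of TNF receptors, stood at 422 to 976 CPM in the dendritic cells and at 34.4 to 235.5 CPM in the C1q positive cells, so the ranges did not overlap. Its log2 ratio was 2.09. Il12b was led by a few cells, at 282 ± 424 against 34.5 CPM, with a median of 20.9. Ccl17, a chemokine that shares its receptor with CCL22, stood at 101 to 4265 CPM against 0 to 1413 (log2 ratio 1.92).

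Genes of the cDC1 list followed, with 5 of 8 at least 2-fold higher, 1 (Rab7b) lower and a median of 1.33. Itgae stood at 69.4 to 1054 CPM (mean 441 ± 305) against 0 to 41.8 CPM in the C1q positive cells, without overlap (log2 ratio 4.53). Cst3 (chr2:148871722-148875692, minus strand) stood at 11277 to 28849 CPM against 3877 to 12187, higher in 8 of 8 tumours, with ranges that overlapped at their ends (1.32). Wdfy4, Naaa and Irf8 had log2 ratios of 1.93, 1.48 and 1.33, and were higher in 6, 5 and 6 of 8 tumours. Of 10 genes of the cDC2 list, 3 were at least 2-fold higher and 3 lower, with a median of 0.17. Clec10a stood at 529 ± 567 against 90.2 CPM (2.43), Tnip3, an NF-κB inhibitor gene, at 386 ± 444 against 87.2 CPM (2.03) and Cd209d at 104 ± 177 against 4.24 CPM. The lower genes were Klf4, Sirpa and Clec4a2.

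Among 6 genes shared by conventional dendritic cells 3 were at least 2-fold higher and 0 lower (median 0.82). Kit, the stem cell factor receptor, stood at 101 to 424 CPM in the dendritic and 0 to 29.6 CPM in the C1q positive cells, so that the ranges did not overlap (log2 ratio 3.44). Cd24a (1.68) and Naaa were the others. Zbtb46, also a gene of the shared list, was read in few cells. These were 5 of the 52 cells with Ccr7 or Ccl22, 3 of the 19 with Cd209a and 1 of the 9 with Xcr1 or Clec9a. Mast cells also carry Kit, and the other 6 of the 7 mast cell and basophil markers gave 0 UMIs in the dendritic cells. Genes outside the lists that stood higher in 8 of 8 tumours were S100a4, a calcium-binding protein gene, at 1730 ± 716 against 185 CPM (3.15) and Timd4, at 679 ± 438 against 19.8 CPM (4.53). Likewise Samsn1, a signalling adaptor gene, stood at 699 ± 243 against 87.1 CPM (2.87) and Map3k14, the kinase NIK of non-canonical NF-κB signalling, at 444 ± 240 against 50.6 CPM (2.90). Napsa, which encodes an aspartic protease, stood at 720 ± 386 against 144 CPM (2.25). Serpinb9, an inhibitor of granzyme B, stood at 970 ± 898 against 37.97 CPM (4.35) and was at 0 in 1 tumour.

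**Figure D2:**
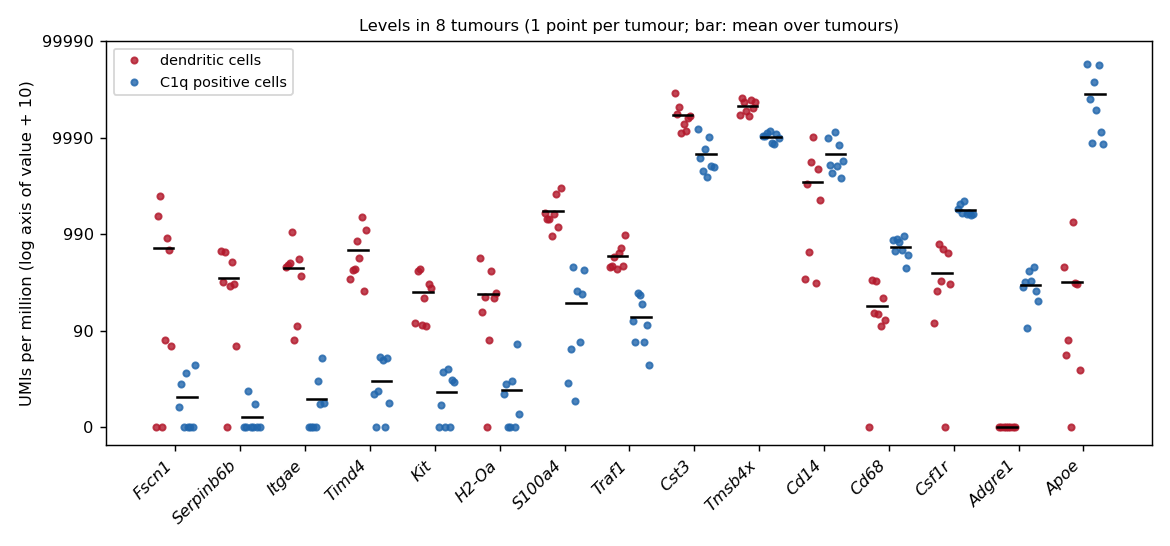
Levels of 15 genes outside the rule in the 8 tumours with at least 3 dendritic cells, 1 point per tumour, in CPM on a log axis of value + 10, with the mean over tumours as a bar. The mean of the dendritic cells (red) lies above that of the C1q positive cells (blue) from Fscn1 to Tmsb4x, with no overlap of points for Itgae, Kit, Traf1 and Tmsb4x, and below it from Cd14 to Apoe.

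Antigen presentation genes outside the 4 class II rule genes went both ways. Of 9 further MHC class II presentation genes, 2 were at least 2-fold higher, 3 lower, and the median was 0.09. The whole list outside the rule summed to 4303 to 7799 CPM (median 5281) in the dendritic cells and 6621 to 14452 CPM (median 8591) in the C1q positive cells. H2-Oa, a chain of the H2-O modulator of peptide loading (chr17:34092340-34095234, plus strand), stood at 229 ± 177 against 14.5 CPM (3.28), and its partner H2-Ob at 96.8 ± 86.5 against 42.7 CPM (1.02). The proteases that process antigen and the invariant chain stood lower: Ctss at 1643 ± 491 against 4796 ± 2621 CPM (−1.54) and Lgmn at 206 ± 125 against 1681 ± 448 CPM (−2.97), both lower in 8 of 8 tumours, and Ctsh at −1.01. Of 12 genes of MHC class I and cross-presentation, 3 were at least 2-fold higher and 0 lower (median 0.53). These were the immunoproteasome subunit Psmb9 at 151 ± 125 against 37.97 CPM (1.75) and the peptide transporter genes Tap1 (1.71) and Tap2 (1.21).

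Costimulation and checkpoint genes included 3 of 8 at least 2-fold higher and 1 (Lgals9) lower, with a median of 0.65. Cd274, which encodes the checkpoint ligand PD-L1, stood at 354 to 828 CPM in the dendritic cells and at 214 to 400 CPM in the C1q positive cells. It was higher in 8 of 8 tumours (597 ± 178 against 273 ± 55.3 CPM, log2 ratio 1.10), and the ranges overlapped. Pdcd1lg2, the PD-L2 gene, stood at 342 ± 225 against 53.7 CPM (2.46), also higher in 8 of 8. The costimulatory genes Cd86 and Cd40 had log2 ratios of 0.90 and 0.41, and Cd80 gave 4 UMIs in all 66 cells. Cd83, a maturation marker, stood at 984 ± 513 against 836 ± 385 CPM (0.23).

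Of 14 cytokine and chemokine genes, 9 stood at least 2-fold lower in the dendritic cells and 2 (Il12b and Ccl17) higher, with a median of −1.18. Cxcl2, a neutrophil chemokine, stood at 316 to 8904 CPM against 5998 to 18349, lower in 8 of 8 tumours (log2 ratio −1.69). Il10, an interleukin that dampens immune responses, gave 1 UMI in the dendritic cells. Il1b was an exception among inflammatory genes, at 1216 to 16726 CPM (mean 10107 ± 5022) against 2982 to 8767 CPM (0.73). It was read in 78.8% of dendritic, 72.3% of C1q positive and 9.89% of epithelial cells. Il1r2, the decoy receptor for interleukin 1, stood at 2614 ± 3520 against 494 ± 308 CPM (2.38), with 11053 CPM in d16 tumour 2 and a median of 1675. Neutrophils also carry Il1r2, and of the other 8 neutrophil markers 3 gave 0 UMIs in the dendritic cells, 4 gave 1 to 3 and Clec4d gave 31.

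The cytoskeleton and migration list had 5 of 14 genes at least 2-fold higher and 0 lower, with a median of 0.41. Tmsb4x, the actin-binding thymosin β4, stood at 17003 to 25978 CPM against 8531 to 11830 CPM, without overlap (log2 ratio 1.07). Marcks, an actin-linked membrane protein gene, stood at 2143 ± 668 against 931 ± 463 CPM (1.19) and Myo1g, a haematopoietic myosin gene, at 614 ± 233 against 199 ± 34.0 CPM (1.57). Of 14 NF-κB genes 2 were at least 2-fold higher, Traf1 and Rel (2.07), with a median of 0.38. Pattern recognition genes had 1 of 10 higher, the β-glucan receptor gene Clec7a at 2236 ± 1041 against 1038 ± 555 CPM (1.10), and 3 lower.

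Macrophage genes had the lowest median among the lists with at least 5 compared genes. Of 11 compared, 10 were at least 2-fold lower and 0 higher, with a median of −3.26. The whole list outside the rule summed to 1105 to 13117 CPM in the dendritic cells and 17023 to 73999 CPM in the C1q positive cells, without overlap. Apoe, the apolipoprotein gene (chr7:19696109-19699188, minus strand), stood at 0 to 1319 CPM (mean 313 ± 437) against 8669 to 58233 CPM (mean 28335 ± 20570), a log2 ratio of −6.46. It was read in 16.7% of dendritic, 95.8% of C1q positive and 21.9% of epithelial cells. The part of free RNA in these reads was not tested. Adgre1 (chr17:57358691-57483527, plus strand) had 0 UMIs in the dendritic cells and 509 in the C1q positive cells, a level at least 21.1-fold lower against a floor of 3 UMIs over the dendritic cells. Pf4 likewise was at least 14-fold lower. Csf1r stood at 384 ± 284 against 1773 ± 230 CPM (−2.18) and Cd14 at 3433 ± 3419 against 6743 ± 2830 CPM (−0.97).

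**Figure D3:**
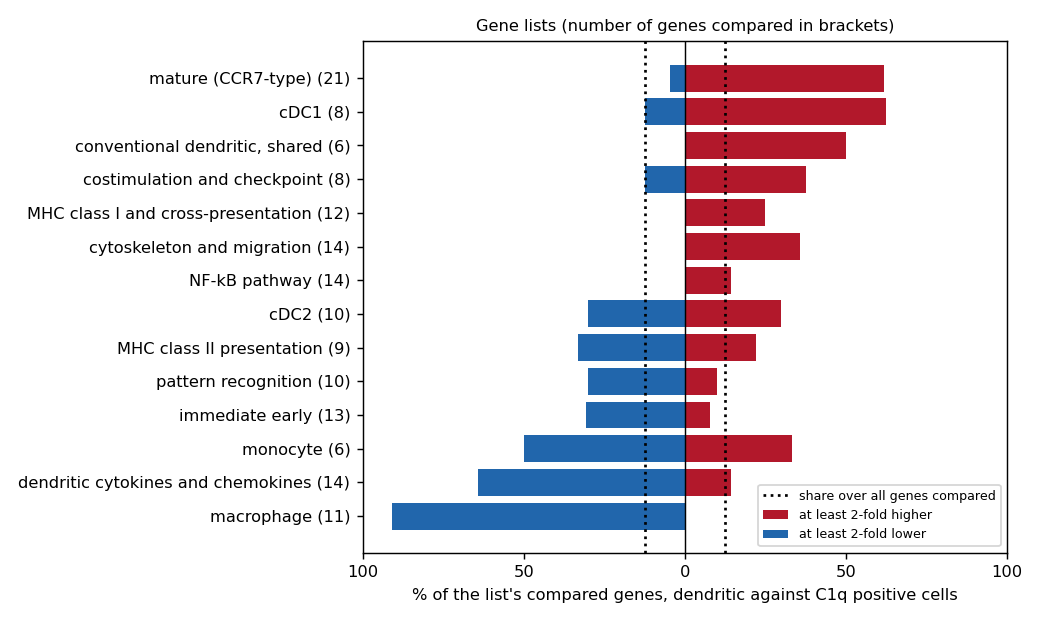
For each gene list with at least 5 compared genes outside the rule, the bar gives the percent of its genes that stood at least 2-fold higher (right) or lower (left) in dendritic than in C1q positive cells. Dotted lines mark the shares over all compared genes, 12.5% and 12.4%, and the lists are ordered by their median log2 ratio, from macrophage genes (−3.26, with 10 of 11 lower) to the mature list (1.53, with 13 of 21 higher). The cDC1 list had about the same share higher (5 of 8).

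The dendritic share of kept cells asks how common the cells were in each tumour. It was 1.91% in d16 tumour 3 (20 of 1045 cells, exact 95% interval 1.17 to 2.94%), 1.75% in p95 tumour 5 (10 of 573) and 1.42% in p95 tumour 3 (9 of 632). Multiparous tumours 1 to 4 held 0.586, 0.549, 1.02 and 0.581%, on 4, 4, 6 and 2 cells. The shares in p95 tumours 1, 2 and 4 were 0.565, 0.796 and 0.214%, on 1, 6 and 1 cells. In d16 tumour 2 it was 0.296% (3 of 1013, interval 0.0611 to 0.863%), and in d16 tumour 1 it was 0 of 363 cells, which allows a share of up to 0.826% by the rule of 3 counts and 1.01% by the exact interval drawn in the plot of shares. The lowest and the highest share both lay among the d16 tumours. Intervals and floors cover counting error only.

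**Figure D4:**
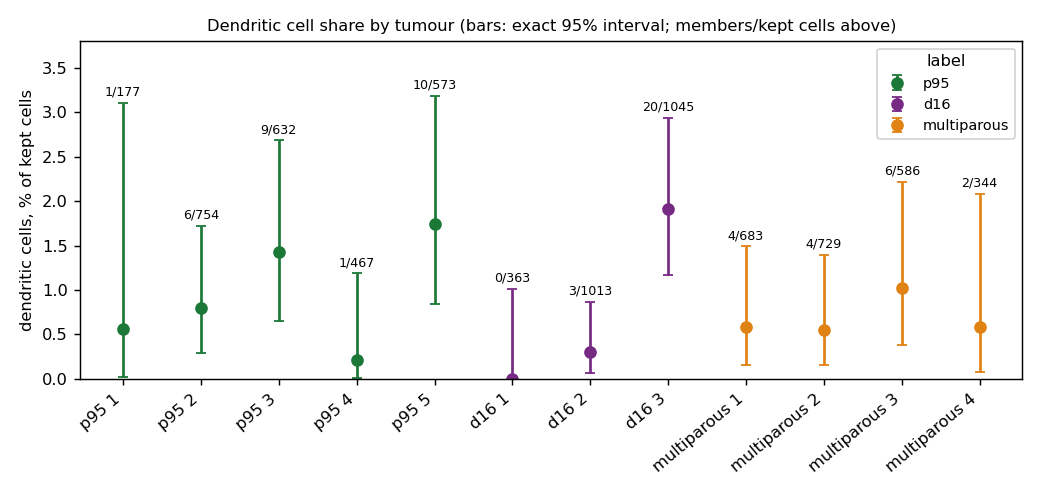
Dendritic cells as percent of kept cells in each of the 12 tumours, with exact 95% intervals as bars, the numbers of dendritic and kept cells above, and colour for the label. Shares run from 0 of 363 cells in d16 tumour 1 to 1.91% in d16 tumour 3, and most intervals overlap.

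No comparison of this share between groups passed the exact permutation test over tumours (two-sided, 3 comparisons, Benjamini-Hochberg adjusted p = 0.6786 for each). The d16 tumours held 0.737 ± 1.03% (n = 3) and the p95 tumours 0.949 ± 0.627% (n = 5), a difference of −0.212 points (95% interval by test inversion −1.74 to 1.34, exact permutation p = 0.6786, smallest possible 0.0179). The sign turned between layouts, at −0.532 points in the intact tables (2 against 2 tumours, exact p = 0.3333, smallest possible 0.1667) and 0.786 points in the date-like tables (1 against 3, exact p = 0.5, smallest possible 0.25), and neither could pass at these sizes. Multiparous tumours held 0.685 ± 0.227% (n = 4) and nulliparous tumours 0.869 ± 0.735% (n = 8), a difference of −0.184 points (−1.08 to 0.63, exact permutation p = 0.6222, smallest possible 0.00202). Within the date-like tables, where the multiparous tumours lie, the difference was −0.639 points (4 against 4 tumours, exact p = 0.1429, smallest possible 0.0143), and the intact tables hold no multiparous tumour. Solid nodular tumours held 0.377 ± 0.327% (n = 3) and metaplastic tumours 0.993 ± 0.697% (n = 7), a difference of −0.617 points (−1.74 to 0.34, exact permutation p = 0.2333, smallest possible 0.00833). It was −0.552 points in the intact (1 against 3 tumours, exact p = 0.25, the smallest possible) and −0.759 points in the date-like tables (2 against 4, exact p = 0.4, smallest possible 0.0667), sizes at which neither could pass. Parity and unknown form of HER2 cannot be told apart. All 7 metaplastic tumours were nulliparous, whereas 2 of the 3 solid nodular tumours were multiparous of unknown form. In the date-like tables the solid nodular tumours were all multiparous and the metaplastic ones all nulliparous. Growth pattern thus cannot be told apart from parity and unknown form of HER2 there.

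Depth differed between the groups: 38.7% of kept d16 cells, 34.3% of p95 cells and 13.1% of multiparous cells had under 1000 UMIs, as did 87.3% of those of d16 tumour 1. After thinning to 1000 UMIs per cell, which left out 2136 shallower cells (937 d16, 892 p95 and 307 multiparous), the share was 0.754% in d16 and 2.36% in p95 tumours. The cells that met the rule changed with thinning. Of the members with at least 1000 UMIs 11 were lost, and 14 other cells were gained, 5 of them with C1q UMIs in their full counts. The thinned shares are thus not those of the same cells. The difference of −1.60 points did not pass (exact permutation p = 0.1964, adjusted p = 0.2946), and 5.26% in p95 tumour 1 came from 19 cells. Thinned shares were 0.829% in multiparous against 1.76% in nulliparous tumours (exact permutation p = 0.3333). They were 0.183% in solid nodular against 2.01% in metaplastic tumours (exact permutation p = 0.075, adjusted p = 0.225), where 448 and 1512 cells were left out. Over the 12 tumours, the share went with the share of C1q positive cells at Pearson r = 0.53 (permutation p = 0.0915, adjusted over 2 relations p = 0.1831) and Spearman rho = 0.31 (p = 0.3178, adjusted p = 0.5435). Without d16 tumour 3 and multiparous tumour 4 r was 0.21, so the relation rested on those tumours, and within the 8 date-like tables r was 0.60. With the median UMIs per kept cell r was 0.22 (permutation p = 0.4958) and rho 0.20 (p = 0.5435), and within the date-like tables r was −0.41.

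As a share of the cells rich in MHC class II, dendritic cells made up 13.1 ± 6.19% in multiparous and 6.97 ± 7.64% in nulliparous tumours (exact permutation p = 0.1879, adjusted p = 0.5636). In solid nodular and metaplastic tumours they made up 10.2 ± 11.2% and 7.97 ± 7.67% (exact permutation p = 0.8333, adjusted p = 0.8333). In both comparisons the sign was opposite to that over all kept cells. In d16 and p95 tumours they made up 3.56 ± 3.90% and 9.02 ± 8.98% (exact permutation p = 0.4464, adjusted p = 0.6696). C1q positive cells made up 1.16% (multiparous tumour 4) to 21.3% (d16 tumour 3) of kept cells.

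Genes within dendritic cells were tested between groups on UMIs summed per tumour, with edgeR's quasi-likelihood test, in the tumours with at least 3 dendritic cells, a minimum lowered from 10 after the data were seen. Each sum held 9047 to 88153 UMIs. For d16 (tumours 2 and 3) against p95 (tumours 2, 3 and 5), 478 genes were tested, 1 was called at an adjusted p under 0.05 (0.209%), and 18 had an unadjusted p under 0.05. The gene called was Mmp12, the macrophage elastase, which degrades elastin. Its UMIs in dendritic cells were 7 in d16 tumour 2, all in 1 of 3 cells, and 153 in d16 tumour 3, in 10 of 20 cells with 47 in 1 cell. They were 0 in p95 tumour 2, 5 in p95 tumour 3 and 1 in p95 tumour 5. Both d16 tumours thus lay above the 3 p95 tumours, at 774 and 1736 against 0, 209 and 29.6 CPM. The groups did not overlap for 70 of the 478 genes (14.6%), in either direction. Within layouts, the values were 774 against 0 in the intact tables and 1736 against 209 and 29.6 in the date-like tables. The log2 fold change was 3.86 ± 0.78 (SE, edgeR adjusted p = 0.0353).

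The call for Mmp12 held in 5 of 9 other settings, with log2 fold changes of 3.23 to 5.78 over the 9. A pair of the 5 are the same fit, with d16 tumour 3 alone as the d16 arm, so that 4 of 8 distinct fits held the call. Without p95 tumour 5 the adjusted p in edgeR was 0.2325, and under DESeq2, voom and RLE size factors it was 0.08467, 0.6001 and 0.06296. Without d16 tumour 3 the gene fell below the count filter and was not tested. In the C1q positive cells of the same tumours, where Mmp12 is abundant, its level was 453 and 2028 CPM in d16 tumours 2 and 3 and 713, 2922 and 2840 CPM in p95 tumours 2, 3 and 5. The order there differed from that in the dendritic cells. Free RNA was not removed, and its part was not tested.

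**Figure D5:**
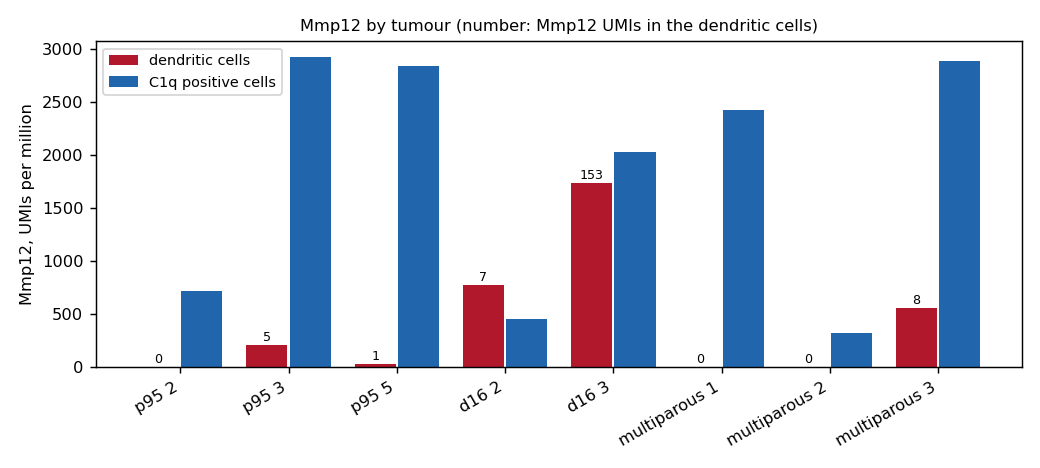
Mmp12 in CPM in dendritic cells (red) and C1q positive cells (blue) of the 8 tumours with at least 3 dendritic cells, with the number of Mmp12 UMIs in the dendritic cells above the red bars. The dendritic level was 774 and 1736 in d16 tumours 2 and 3 and at most 209 in the p95 tumours shown, while the C1q positive level reached 2922 in p95 tumour 3.

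Among the other 10 genes of smallest p for d16 against p95, each with an edgeR adjusted p of 0.9993, 8 had positive and 2 negative fold changes. Nr4a3, an orphan nuclear receptor gene linked to dendritic cell migration, stood at 4242 and 5410 in d16 and at 1680 to 2859 in p95 tumours, in CPM normalised over the tested genes (log2 fold change 1.18 ± 0.49, SE). Procr, the protein C receptor gene, was also without overlap, at 1504 and 5049 against 552 to 1222 (1.67 ± 0.61). So was S100a10, an annexin partner gene, at 0 and 586 against 1451 to 2294 (−2.09 ± 0.66). Its partner Anxa2 (−1.48 ± 0.58) and Ramp3 (1.24 ± 0.51) did not overlap either. The remainder were Prdx1 (2.28), Cxcl3 (1.96), Clec4n (1.82), Il1r2 (1.69) and Rgs1 (1.49). The rule genes H2-Aa and H2-Ab1 had log2 fold changes of 0.18 ± 0.50 and 0.29 ± 0.49, Ccr7 −0.14 ± 0.54 and Ccl22 −0.97 ± 0.79, none called.

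For multiparous (tumours 1 to 3) against nulliparous tumours (p95 tumours 2, 3 and 5, d16 tumours 2 and 3), 258 genes were tested and edgeR called 0 (0%), as did DESeq2 and voom. An unadjusted p under 0.05 was found for 14 genes, and the smallest adjusted p was 0.7402. H2-D1, a classical MHC class I heavy chain, stood at 14370 to 22684 in multiparous and 8450 to 11081 in nulliparous tumours, in CPM normalised over the tested genes, without overlap (log2 fold change 0.87 ± 0.27, SE). The groups did not overlap for 11 of the 258 genes (4.26%), in either direction. The other class I genes H2-K1 and B2m had 0.55 ± 0.33 and 0.69 ± 0.37. Napsa stood at 615 to 974 against 1295 to 3022, without overlap (−1.27 ± 0.47), and Rab8b, a vesicle transport gene, at 307.6 to 687 against 942 to 2015 (−1.58 ± 0.55). Rpl6, a ribosomal protein gene, stood at 2192 to 2769 against 1190 to 2001 (0.80 ± 0.31). Il1r2 (−2.50), S100a11 (−1.59), the ETS factor gene Etv3 (−1.37), Rgs2 (1.33), Rps26 (−0.86) and the survival gene Mcl1 (0.74) overlapped between groups. The class II chaperone gene Cd74 stood at 6460 to 12029 against 10006 to 30975, and Ccl22 at 487 to 5499 against 1118 to 25737 (log2 fold changes −0.88 ± 0.41 and −1.93 ± 0.98). Solid nodular and metaplastic tumours were not compared by gene, since multiparous tumour 2 was the sole solid nodular tumour with 3 dendritic cells or more. Fewer cells of a set and less RNA per cell cannot be told apart in these sums.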

How the data were processed

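Raw UMI counts per gene and cell, 1 deposited table per tumour (12 tables, 24421 genes each), were made by the authors from ddSEQ SureCell 3′ libraries, per the labels' protocols, with several libraries joined per table. Seurat 3.0.2 and the build GRCm38 are named in the submitters' processing notes. For the aligner, counting, annotation and cell calling, the tools are not given in the sources used here. Date-like gene names (27) were mapped back and 1715 names restored, and 23376 were found in GENCODE M21. The tables list 0 mitochondrial genes.

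The members and gene lists were chosen with earlier results of these data known. Levels are UMIs per 1000000 UMIs of summed cells, compared with a prior of 10 CPM. Shares were compared by two-sided exact permutation (scipy 1.17.1, Python 3.11.15). Summed counts, filtered by filterByExpr and scaled by TMM, were tested in R 4.3.3 with edgeR 4.0.16, at a Benjamini-Hochberg adjusted p under 0.05, with DESeq2 1.42.0 and limma 3.58.1 (voom) as alternatives. Each SE was derived from the F statistic and the fold without shrinkage. The planned minimum of 10 dendritic cells per tumour left 2 tumours, so 3 was used instead, chosen after the data were seen. Fits were tested on simulated counts. Doublets and free RNA were not removed.

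Named genes were, per fit, those called and, where fewer than 5 were called, the 10 of smallest p with an average log2 CPM of at least 6. In the description they were the 25 genes highest over C1q positive cells and the 15 highest over all other cells. Both sets were read in at least 20% of members and in members of at least 6 tumours. The 15 lowest under C1q positive cells (read in at least 20% of the C1q positive cells) and up to 6 members per list were added. The text prints a selection of these, and some list genes are not reported here. The 15 lowest genes, the Fscn1 split, the promoters and list members outside this rule were chosen after values were seen. Alternatives covered other limits for cells, thinning, size factors, filters, layouts and leaving out each tumour.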

Additional observations from a re-analysis of the deposited data

Results flagged for a closer look

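In 5 of 18 groups examined, 1 tumour lay far from the others by a gap test that flags about 1 group in 20 by chance, and 2 of the 5 are the same value in overlapping groups. Among multiparous tumours, tumour 3 had 1.02% dendritic cells of kept cells, with the nearest at 0.586%. In p95 tumour 3, dendritic cells made up 24.3% of cells rich in MHC class II, with the nearest at 9.26%, both among nulliparous and among metaplastic tumours. Il1r2 in the dendritic cells of d16 tumour 2 stood at 25183 CPM normalised over the tested genes, on 3 cells, against 5443 in the nearest nulliparous tumour. Rpl6 in p95 tumour 5 stood at 2001 against 1361.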

How the results depend on the processing

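The share of dendritic cells kept its sign and stayed short of the threshold in 16 of 21 alternatives for d16 against p95 tumours, 22 of 23 for multiparous against nulliparous and 22 of 22 for solid nodular against metaplastic tumours, with kept cells, or those other than epithelial cells, as the base. With cells rich in MHC class II as the base, the sign turned for multiparous against nulliparous (6.12 points) and for solid nodular against metaplastic tumours (2.27 points). For d16 against p95 the difference turned to 0.0602 points without the 2 shallowest tumours and 0.786 points in the date-like tables, and leaving out each tumour gave −0.801 to 0.156 points (0.156 without d16 tumour 1 and 0.00812 without d16 tumour 2). For multiparous against nulliparous it turned to 0.119 points over kept cells other than epithelial cells, and leaving out each tumour gave −0.309 to −0.0351. For solid nodular against metaplastic that range was −0.747 to −0.428. The count of genes called for d16 against p95 (1) was 0 under DESeq2, 0 under voom, 0 under RLE, 2 without the low-count filter, 3 at 5 members per tumour, and 0 to 3 when each tumour was left out (0 without p95 tumour 5, 2 without p95 tumour 3, 3 without d16 tumour 2 or 3). The count for multiparous against nulliparous (0) was 2 without the filter, 1 at 5 members, and 0 to 1 when each tumour was left out (1 without multiparous tumour 1). For d16 against p95, Prdx1 turned to −0.48, Il1r2 to −0.011 and Rgs1 to −0.14, both at 5 members and without d16 tumour 2, which are the same fit with d16 tumour 3 alone as the d16 arm, and passed at 3.22, 2.48 and 2.27 without d16 tumour 3, where d16 tumour 2 (3 cells) is the whole arm. In each of these fits the lone tumour is assumed to vary like the p95 tumours. Rgs2 in multiparous tumours turned to −0.014 at 5 members. The cause was not tested, beyond the fewer tumours those fits hold. Genes at least 2-fold higher than in C1q positive cells were 400, and 374 over the 2 tumours with 10 members or 331 with cells pooled, and those lower were 397, 516 and 379. The labels give d16 tumour 2 the title number of p95 tumour 2 and d16 tumour 3 that of p95 tumour 4, without saying that these share an animal. With that pairing as a block, chosen after seeing the data, the share differed by −0.4996 and 1.70 points, a mean of 0.600 points (exact sign-flip permutation p = 1, smallest possible 0.5). For genes no paired analysis was possible because only 1 pair of the tumours with 3 or more members shared a title number, and no correlation within pairs could be estimated. Fits at 10 and 20 members, share tests of the sets and gene fits by growth pattern were not run, for lack of tumours with enough cells. Depth limits the fits to 478 and 258 genes and leaves shares below 1% on 6 or fewer cells.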

Other observations

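Genes of cell division summed to 283 to 1159 CPM (median 636) in the dendritic cells. In the C1q positive cells they summed to 501 to 1150 CPM (median 707), so the ranges overlapped. Of 18 genes, 4 gave 0 UMIs in the dendritic cells, among them Cdk1, the mitotic kinase. Mki67, which encodes the antigen Ki-67, was read in 2 of 66 cells. The histone gene H2afz stood at 364 ± 152 CPM (SD, n = 8 tumours) against 189 CPM in the C1q positive cells, and the DNA clamp gene Pcna at 51.8 ± 59.4 against 80.5 CPM. Interferon response genes summed to 70.7 to 1054 CPM (median 452) in the dendritic cells. Their sum was 360 to 1759 CPM (median 656) in the C1q positive cells, also with overlap. Of 23 genes, 10 gave 0 UMIs in the dendritic cells, among them Irf7, Rsad2, Ifit1 and Ifit3. The share of all genes at 0 UMIs is not given here, so these counts are not read as a trait of the cells. Ifi27l2a, the most abundant of the interferon response genes, stood at 278 ± 280 against 247 CPM. Of 13 compared immediate early and stress genes, 4 stood at least 2-fold lower than in C1q positive cells: Fosb, Atf3 and the heat shock genes Hspa1a (log2 ratio −1.76) and Hspa1b (−1.49). Btg2, an antiproliferative gene, was the only one of the 13 at least 2-fold higher, at 507 ± 453 against 175 CPM (1.48).

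Against all other kept cells, Cytip, which encodes a regulator of integrin adhesion, stood at 3759 ± 1053 against 166 ± 114 CPM and Plbd1, a phospholipase-like gene, at 958 ± 253 against 40.3 ± 23.2 CPM (n = 8 tumours). Ramp3, a partner of the calcitonin receptor family, stood at 1503 ± 990 against 60.3 ± 36.8 CPM. Tbc1d4, a regulator of vesicle traffic, stood at 991 ± 751 against 32.3 ± 11.4 CPM, and Pkib, an inhibitor of protein kinase A, at 359 ± 167 against 7.23 ± 4.99 CPM. The Langerhans cell lectin gene Cd207 gave 50 UMIs in 9 cells. The plasmacytoid gene Ly6d gave 32 UMIs in 5 cells and Ccr9 14 UMIs in 3 cells, while Spib and Irf7 gave 0. These contrasts are a description of chosen cells and carry no test.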
